A study of Homo sapiens with 6 samples.

Results

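The TNF receptor superfamily genes described here are 9 receptors for TNF, TRAIL, FAS ligand, TWEAK and related ligands, together with TNFSF10, the gene of TRAIL itself. They were taken by gene symbol from the deposited expression table, by a rule that names genes and uses no threshold on their values, and all 10 were found among its 20332 genes. The RNA came from LX-2, a widely used immortalized line of human hepatic stellate cells. In 3 libraries the cells had been given TGF-β1 together with compound 11 at 10 µM for 48 h. In the other 3 they had been given TGF-β1 with the solvent DMSO, also for 48 h. The labels name the compound by its number only. TGF-β1 was present in both groups, and cells without it were not analysed here. LX-2 is 1 cell line, so the values speak for that line alone. Values are in TPM, an abundance corrected for transcript length, so levels of different genes can be compared; sequencing depth is unknown on this scale.

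Receptors of this superfamily are single-pass membrane proteins that signal as clusters once a trimeric ligand binds. Those with a death domain, TNFRSF1A, TNFRSF10A, TNFRSF10B, TNFRSF21 and FAS, can recruit adaptors such as TRADD and FADD, the kinase RIPK1 and the initiator caspase CASP8, and so start apoptosis or necroptosis. Those without one, TNFRSF1B, TNFRSF9 and TNFRSF12A, bind TRAF proteins and activate NF-κB, and TNFRSF10D carries a truncated death domain and acts as a decoy for TRAIL. TGF-β1 turns stellate cells into the myofibroblasts of liver fibrosis, and death through such receptors is a known route of their clearance.

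RefSeq promoter windows (GRCh38.p14) were on hand for 6 of the 10 members, and 3 stretches are shown. TNFRSF1A and TNFRSF1B, the receptors for TNF, moved in opposite directions; TNFRSF9 is shown because its window holds the matches sought. Each runs 5′ to 3′ on the strand of the gene, in lower case, and bases that lie in GENCODE exons of TNFRSF1A were left off. The TNFRSF9 stretch lies inside the gene as GENCODE bounds it (7915894 to 7943165), not upstream of it. Exonic bases were not left off there. Capitals mark matches to the NF-κB consensus.
TNFRSF1A, chr12:6342115-6342326, minus strand: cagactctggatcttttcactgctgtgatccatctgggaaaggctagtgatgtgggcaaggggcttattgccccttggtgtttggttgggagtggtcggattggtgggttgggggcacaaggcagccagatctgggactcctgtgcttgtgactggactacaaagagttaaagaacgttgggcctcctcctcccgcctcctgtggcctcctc
TNFRSF1B, chr1:12166741-12166990, plus strand: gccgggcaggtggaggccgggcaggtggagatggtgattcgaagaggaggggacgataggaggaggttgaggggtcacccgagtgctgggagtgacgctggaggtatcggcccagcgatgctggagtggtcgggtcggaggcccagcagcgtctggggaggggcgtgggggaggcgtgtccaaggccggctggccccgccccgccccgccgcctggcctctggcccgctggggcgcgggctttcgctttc
TNFRSF9, chr1:7940893-7940922, minus strand: agctgtggtGGGAATTTCCCatgagacccc
Both strands of the 250 bases before each start were searched for AP-1 (TGANTCA, N being any base) and for the NF-κB consensus. Of 35116 such windows in the RefSeq table, 6.57% held the AP-1 letters and 9.96% the NF-κB consensus. The windows of TNFRSF1A, TNFRSF1B, TNFRSF21 and TNFSF10 held neither. The TNFRSF9 window held 2 overlapping NF-κB matches, 1 on each strand, in the 11-base run in capitals 74 to 64 bases before the RefSeq start, and 1 AP-1 match (TGAGTCA) 44 to 38 bases before it. FAS has 3 windows, of which 1 held an AP-1 match and another, inside the GENCODE gene, an NF-κB match. These matches are letters in a window, with no measure of binding.

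Receptors for TNF, TRAIL and TWEAK shifted in level with compound 11. TNFRSF1B, TNFRSF10B, TNFRSF10D and TNFRSF12A were 1.67-fold to 2.32-fold higher, while TNFRSF1A was 1.26-fold and FAS 1.52-fold lower. The fall of FAS is uncertain, as its call was lost in 3 of 14 alternative fits and its exons overlap those of ACTA2. TNFRSF12A remained the most abundant member, at 396.8 ± 10.6 TPM with compound 11 and 214 ± 4.46 TPM with DMSO (SD, n = 3 each). TRAIL and the costimulatory receptor TNFRSF9 were close to the floor of the table in both groups.

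The test was limma on log2(TPM + 1) over every gene that reached 1 TPM in 3 or more libraries, with p-values adjusted by Benjamini-Hochberg and called at 0.05. Of the 10 members, 8 passed that filter; 4 rose, 2 fell and 2 did not pass the test. Among all 12067 genes tested 49.6% were called, 25.3% higher and 24.3% lower, so calls were common throughout. The median log2 fold change was 0.61 over the 8 members tested and -0.0013 over all genes tested. That median depends on the filter, which left out TNFRSF9 and TNFSF10. With no filter their log2 fold changes in limma were -0.59 (adjusted p = 0.0821) and -0.11 (adjusted p = 0.618), so neither was called. The groups of TNFSF10 overlapped. In 7 of these 8 members no library of one group lay within the range of the other, against 57.8% of all genes tested. TNFRSF10A reached 1 TPM in 4 libraries, 3 of them with compound 11, so it passed the filter mainly through the group where it was higher. In whole-culture RNA, fewer cells of a kind and less RNA per cell cannot be told apart.

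**Figure D1:**
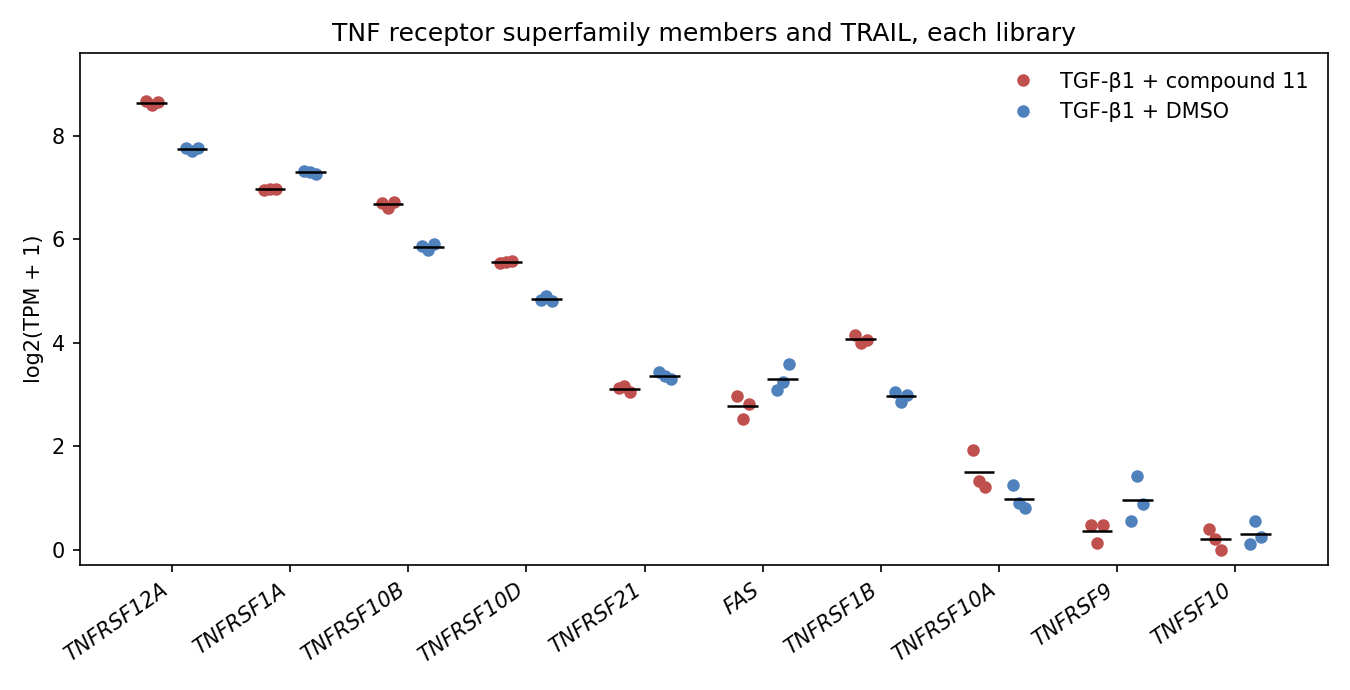
Level of each member as log2(TPM + 1) in each library; points are libraries, lines are group means, with 3 libraries of TGF-β1 and compound 11 left of 3 of TGF-β1 and DMSO for each gene. TNFRSF12A, TNFRSF10B, TNFRSF10D and TNFRSF1B lie higher with compound 11 with no overlap, TNFRSF1A and FAS lie lower, and TNFRSF9 and TNFSF10 lie near 0.

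The 6 libraries resembled each other closely. Across genes, not independent of each other, Pearson correlation was 0.993 to 0.994 inside a group and 0.960 to 0.961 from group to group, and no library stood apart. Between 14699 and 14830 genes per library were above 0. Of the defining markers of stellate cells and fibroblasts, VIM averaged 7512 TPM with compound 11 and 6400 TPM with DMSO, and COL1A1 102 and 1132 TPM in the same order; DES was listed at 0 in all 6 libraries and LRAT in 5. Of the 10 stellate markers 7 passed the filter, THY1 only through the DMSO libraries, where it was higher. VIM rose and COL1A1, COL3A1, ACTA2, PDGFRB and THY1 fell, while of all genes tested 25.3% rose and 24.3% fell. The sum of the 10, carried by VIM, was 7505 to 7709 TPM with compound 11 and 7673 to 7995 TPM with DMSO. Hepatocyte markers summed to 19.5 to 28.3 TPM with compound 11 and 3.98 to 5.17 TPM with DMSO, mostly SERPINA1, with APOA1, APOB, TTR and HNF4A listed at 0 in all 6. Cholangiocyte markers summed to 38.3 to 38.9 TPM with compound 11 and 26.1 to 31.7 TPM with DMSO, mostly SOX9, with CFTR listed at 0 in all 6; KRT7 fell, with a mean of 2.45 TPM with compound 11 and 3.92 TPM with DMSO. Their part in the results was not tested. The labels do not say whether replicates were separate cultures, so p-values measure the spread between these libraries, which may be technical.

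The receptors for TNF changed in opposite directions. TNFRSF1A, the widely expressed death-domain receptor for TNF, lies on chromosome 12 at 6328757 to 6342114, minus strand (GRCh38, GENCODE v29, protein-coding, as are all the members). It had 122.7, 125.2 and 125.1 TPM with compound 11, against 159.1, 156.1 and 153.4 TPM with DMSO. All 3 compound 11 libraries were below all 3 DMSO libraries, and the log2 fold change was -0.33 ± 0.04 SE (tested in limma, Benjamini-Hochberg adjusted p = 7.94e-05). TNFRSF1B, which has no death domain, prefers membrane-bound TNF and is best known from leukocytes, lies on chromosome 1 at 12167003 to 12209228, plus strand. It had 16.8, 15.0 and 15.7 TPM with compound 11, against 7.26, 6.22 and 6.97 TPM with DMSO. Again the groups were apart, now with compound 11 above, and the log2 fold change was 1.11 ± 0.10 SE (tested in limma, Benjamini-Hochberg adjusted p = 1.31e-05). This was the highest log2 fold change of the members tested, and 97.3% of tested genes had a lower log2 fold change.

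The balance between them therefore moved more than either alone. The ratio of TNFRSF1B to TNFRSF1A in TPM was 0.137, 0.1196 and 0.125 with compound 11, against 0.0456, 0.0399 and 0.0454 with DMSO. No compound 11 library came near a DMSO library, and the ratio was 2.92-fold higher with compound 11. An exact two-sided permutation test of the log2 ratio gave p = 0.1, which is the lowest value possible with 3 libraries a group. Because TNFRSF1B was higher and TNFRSF1A lower in every compound 11 library, the ratio had to separate and p had to be 0.1. The ratio restates the 2 changes above and adds no separate support. TNFRSF1A was the more abundant of the pair in all 6 libraries.

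Markers of leukocytes, on which TNFRSF1B and TNFRSF9 are best known, were mostly near 0. Of 12 on the list, 4 passed the filter and 2 rose, CD68 and CSF1R, against 25.3% of all genes tested. The other 2, CD14 and LYZ, had log2 fold changes of -0.30 and -0.37 and did not pass the test. Their groups did not overlap, as in 57.8% of all genes tested. The summed level of the 12 was 140.6 to 156.8 TPM with compound 11 and 89.7 to 92.4 TPM with DMSO. CD68, also a lysosomal protein of other cells, made up most: 141 TPM with compound 11 and 82.2 TPM with DMSO on average. PTPRC, the pan-leukocyte marker, was at 0.311 to 0.344 TPM with compound 11 and 0.079 to 0.426 TPM with DMSO. The part of leukocytes in the level of TNFRSF1B was not tested.

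Among the receptors for TRAIL, TNFRSF10B and TNFRSF10D rose, and the ligand was near 0 in both groups. TNFRSF10A, TNFRSF10B and TNFRSF10D lie in 1 cluster on chromosome 8, on the minus strand, between 23020133 and 23225126. TNFRSF10B, a TRAIL receptor with a death domain, had 102.4, 96.8 and 104.8 TPM with compound 11, against 57.2, 54.4 and 59.2 TPM with DMSO. The groups were far apart, with a log2 fold change of 0.82 ± 0.05 SE (tested in limma, Benjamini-Hochberg adjusted p = 1.61e-06). TNFRSF10D, the decoy, had 45.3, 46.0 and 47.1 TPM with compound 11, against 27.2, 28.9 and 27.0 TPM with DMSO. It was higher in every compound 11 library, with a log2 fold change of 0.72 ± 0.06 SE (tested in limma, Benjamini-Hochberg adjusted p = 7.97e-06).

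TNFRSF10A, the other TRAIL receptor with a death domain, was scarce by comparison. It had 2.82, 1.52 and 1.31 TPM with compound 11, against 1.38, 0.877 and 0.749 TPM with DMSO. The groups overlapped, and the log2 fold change of 0.50 ± 0.22 SE did not pass the threshold (95% confidence interval 0.01 to 1.00; limma, Benjamini-Hochberg adjusted p = 0.0848). Antisense transcripts AC100861.1 and TNFRSF10A-AS1, not analysed here, cover 266 and 224 of its 2951 exonic bases, and their part in its level was not tested. TNFSF10, TRAIL itself, on chromosome 3 at 172505508 to 172523507, minus strand, had 0.324 and 0.156 TPM and was listed at 0 in the third compound 11 library, against 0.086, 0.478 and 0.191 TPM with DMSO. It did not pass the filter and was not tested.

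The proportion of decoy to death receptor did not separate the groups. The ratio of TNFRSF10D to TNFRSF10B was 0.456 ± 0.0171 with compound 11 and 0.488 ± 0.0388 with DMSO (SD, n = 3 each; exact two-sided permutation test p = 0.2). The ratios overlapped, with a difference in log2 ratio of -0.09. The ratio of TNFRSF10A to TNFRSF10B was 0.0186 ± 0.00793 with compound 11 and 0.0177 ± 0.00592 with DMSO (exact two-sided permutation test p = 1), and its direction turned when 1 library was left out: without compound 11 replicate 1 the difference in log2 ratio was -0.28, and without DMSO replicate 3 it was -0.17, against 0.05 with all 6. TNFRSF10C, the other TRAIL decoy, was at or below 0.200 TPM in all 6 libraries. TNFRSF11B, osteoprotegerin, a secreted receptor that binds both RANK ligand and TRAIL, had 4.82, 5.42 and 6.97 TPM with compound 11, against 1.90, 1.46 and 2.34 TPM with DMSO (log2 fold change 1.22 ± 0.17 SE, in limma, Benjamini-Hochberg adjusted p = 0.000261).

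**Figure D2:**
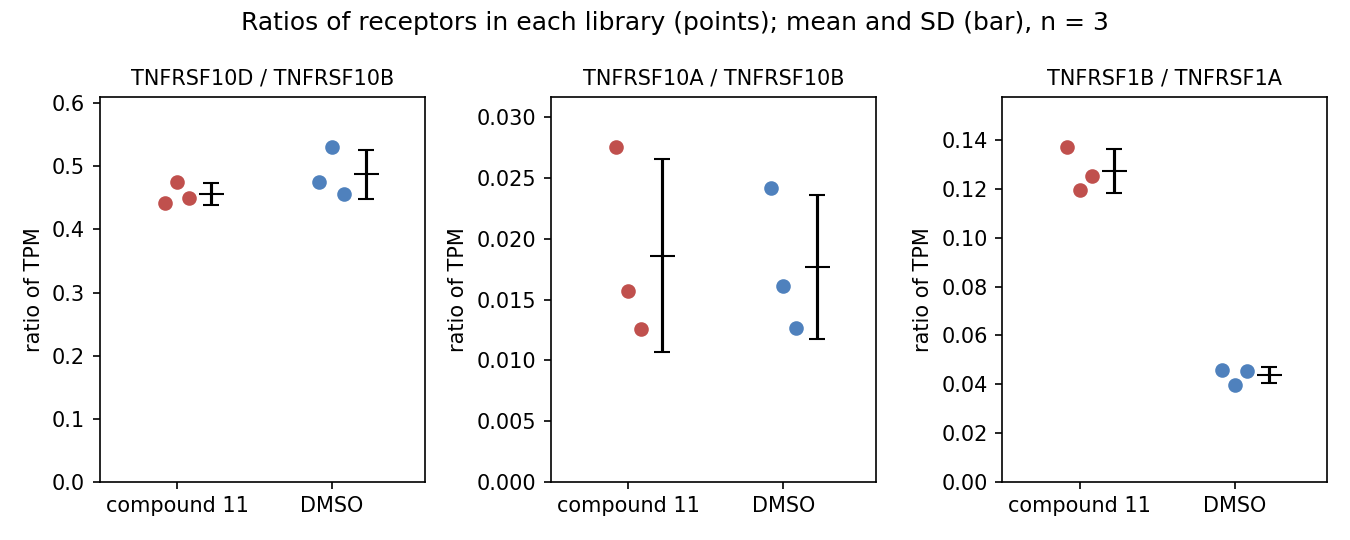
Ratio of TPM for TNFRSF10D over TNFRSF10B, TNFRSF10A over TNFRSF10B and TNFRSF1B over TNFRSF1A, with compound 11 left of DMSO; points are the 3 libraries of each group, and bars give mean and SD. Both TRAIL receptor ratios overlap between groups, while the TNF receptor ratio is 0.1196 to 0.137 with compound 11 and 0.0399 to 0.0456 with DMSO.

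FAS, the death-domain receptor for FAS ligand, had the lowest log2 fold change of the members that passed the filter. It had 6.89, 4.77 and 6.08 TPM with compound 11, against 7.54, 8.51 and 10.96 TPM with DMSO. The groups did not overlap, but both were spread widely, and compound 11 replicate 1 lay close to DMSO replicate 1. Its log2 fold change was -0.53 ± 0.16 SE (tested in limma, Benjamini-Hochberg adjusted p = 0.0202), and over the 14 alternatives the adjusted p was 0.0126 to 0.072. The call was lost without compound 11 replicate 2 (log2 fold change -0.41, adjusted p = 0.0626), without DMSO replicate 3 (-0.40, adjusted p = 0.072) and with no filter on low values (adjusted p = 0.0505). FASLG, its ligand, was listed at 0 in all 6 libraries. TNFRSF6B, a soluble decoy for FAS ligand, was at 0 to 2.20 TPM with compound 11 and 0.256 to 1.18 TPM with DMSO.

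FAS also overlaps a gene that fell much further. It lies on chromosome 10 at 88990582 to 89015785, plus strand, and ACTA2, smooth muscle actin, at 88935074 to 88991339, minus strand. Their exons share 380 bases, 8.93% of the exonic bases of FAS. Of the merged ACTA2 exons, only the outermost lies over FAS. ACTA2 had 5.80, 6.58 and 6.45 TPM with compound 11, against 181.2, 175.6 and 172.4 TPM with DMSO. These values are for the whole gene and do not show how far its outermost exon was used. The use of strand in counting is not given in the sources used here, and without it reads from the shared stretch cannot be assigned to either gene. The part of ACTA2 reads in the level of FAS was not tested, so the fall of FAS is uncertain.

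**Figure D3:**
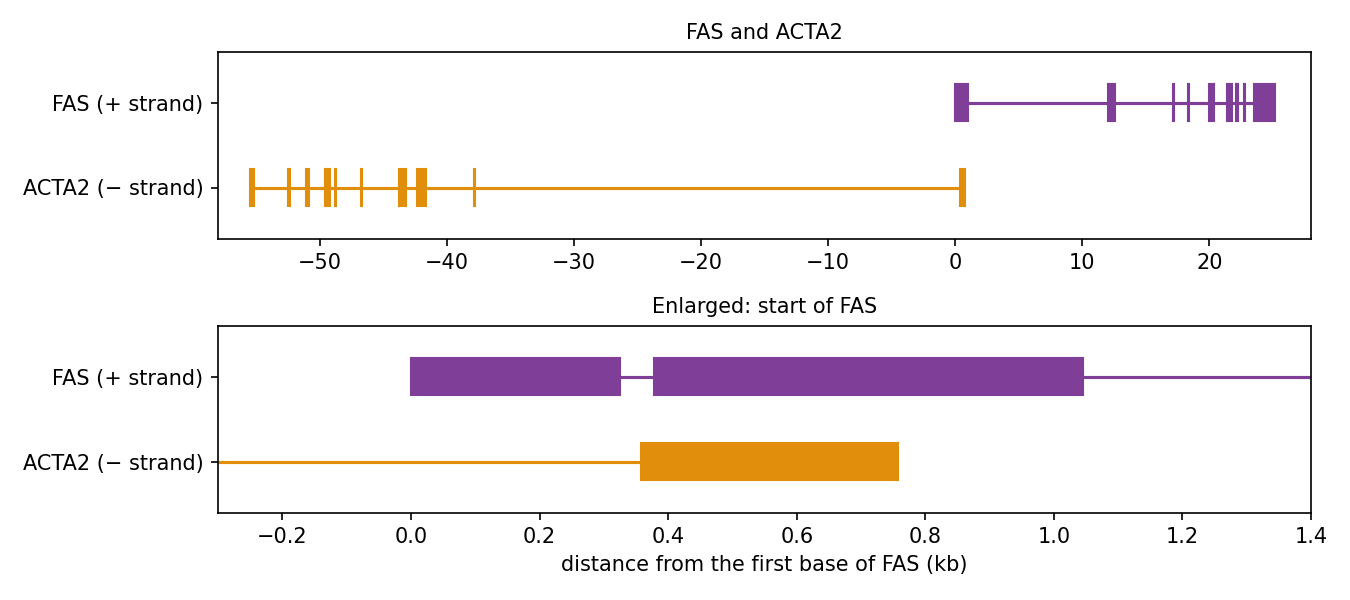
Merged annotated exons (boxes) of FAS and ACTA2 by distance in kb from the first base of FAS, for the whole locus (top) and enlarged at the start of FAS (bottom). Only the outermost merged exon of ACTA2, on the opposite strand, lies over FAS, where it covers 380 exonic bases.

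Apart from FAS and TNFRSF10A, exonic overlap with other genes was slight. TNFRSF10B shares 67 exonic bases with RHOBTB2 and TNFRSF12A 40 with CLDN6, each on the opposite strand, and TNFRSF1B shares 36 with the microRNA gene MIR7846 on its own strand. No member shared a 50-base stretch of transcript with another member. Apart from FAS, with 7.09% of such stretches shared, no member had more than 1.35% in common with any other gene of the table.

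TNFRSF12A, the receptor for TWEAK, known also as Fn14, has a short cytoplasmic tail without a death domain and is induced by growth factors and injury in many tissues. It lies on chromosome 16 at 3018445 to 3022383, plus strand. It had 405.9, 385.2 and 399.3 TPM with compound 11, against 217.2, 209.2 and 216.5 TPM with DMSO. Libraries within a group differed little, and the log2 fold change of 0.89 ± 0.04 SE had the smallest p of the members (limma, Benjamini-Hochberg adjusted p = 6.79e-08). TNFSF12, the gene of TWEAK, had 26.8, 34.9 and 34.4 TPM with compound 11, against 23.1, 25.7 and 26.3 TPM with DMSO. It too rose, by less, with compound 11 replicate 1 just above the highest DMSO library (log2 fold change 0.33 ± 0.11 SE, in limma, Benjamini-Hochberg adjusted p = 0.0255).

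TNFRSF21, a death-domain receptor also called DR6, lies on chromosome 6 at 47231532 to 47309905, minus strand. It had 7.69, 8.01 and 7.31 TPM with compound 11, against 9.77, 9.19 and 8.80 TPM with DMSO. The groups did not overlap, yet the log2 fold change of -0.24 ± 0.09 SE missed the threshold (95% confidence interval -0.46 to -0.03; limma, Benjamini-Hochberg adjusted p = 0.0598). It passed after rescaling to the same upper quartile (adjusted p = 0.0457), after quantile normalization (adjusted p = 0.0337) and without a variance trend (adjusted p = 0.0166). TNFRSF9, known as CD137, a costimulatory receptor of activated T cells, lies on chromosome 1 at 7915894 to 7943165, minus strand. It had 0.401, 0.1 and 0.394 TPM with compound 11, against 0.466, 1.69 and 0.841 TPM with DMSO. Every library of the compound 11 group was lower, but only DMSO replicate 2 exceeded 1 TPM and the gene did not pass the filter. With no filter its log2 fold change was -0.59 (limma, Benjamini-Hochberg adjusted p = 0.0821).

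These shifts changed the order of the members in part. With compound 11 the order by mean TPM was TNFRSF12A, TNFRSF1A, TNFRSF10B, TNFRSF10D, TNFRSF1B, TNFRSF21, FAS, TNFRSF10A, TNFRSF9 and TNFSF10. With DMSO the first 4 stood in the same order, followed by TNFRSF21, FAS, TNFRSF1B, TNFRSF10A, TNFRSF9 and TNFSF10. TNFRSF1B thus stood above TNFRSF21 and FAS with compound 11, at 15.8 TPM, and below both with DMSO, at 6.82 TPM. Neighbours whose libraries overlapped were TNFRSF9 and TNFSF10 with compound 11, and with DMSO TNFRSF21 and FAS, TNFRSF10A and TNFRSF9, and TNFRSF9 and TNFSF10. TNFRSF1A exceeded TNFRSF10B 1.23-fold with compound 11 and 2.74-fold with DMSO. The 10 members together came to 683 to 711 TPM with compound 11 and 475 to 487 TPM with DMSO, of which TNFRSF12A made up 56.4% to 57.1% with compound 11 and 44% to 44.7% with DMSO.

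Other receptors of the family were called about as often as genes in general. Of 20, 8 passed the filter, 4 rose and 0 fell. Of those tested 50% were called, against 49.6% of all genes, 25.3% higher and 24.3% lower. The median log2 fold change was 0.31, against -0.0013 over all genes tested. CD40, the receptor for CD40 ligand on antigen-presenting and stromal cells, had 54.6, 61.0 and 61.7 TPM with compound 11, against 31.1, 32.7 and 28.4 TPM with DMSO (log2 fold change 0.92 ± 0.07 SE, in limma, Benjamini-Hochberg adjusted p = 6.91e-06). LTBR, the lymphotoxin β receptor, averaged 108 TPM with compound 11 and 75.0 TPM with DMSO. RELT averaged 21.9 and 15.5 TPM in the same order, and TNFRSF11B is given above. NGFR, the low-affinity neurotrophin receptor, averaged 21.9 TPM with compound 11 and 21.6 TPM with DMSO, and TNFRSF19 at 16.7 and 15.4 TPM; neither passed. TNFRSF4, TNFRSF13B, TNFRSF18 and CD27, receptors of lymphocytes, were listed at 0 in all 6 libraries.

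Among 17 other ligands, 7 passed the filter, 4 rose and 0 fell. Their median log2 fold change was 0.35, against -0.0013 over all genes tested. Of the ligands tested 57.1% were called, against 49.6% of all genes, 25.3% higher and 24.3% lower. Without a variance trend 3 were higher and 1 lower. TNFSF15, the ligand of TNFRSF25, had 8.40, 7.64 and 8.50 TPM with compound 11, against 1.06, 1.26 and 1.11 TPM with DMSO. It was the ligand with the highest log2 fold change, 2.10 ± 0.12 SE (tested in limma, Benjamini-Hochberg adjusted p = 6.89e-07). Endothelial cells are a known source of TNFSF15. Of 8 endothelial markers 3 passed the filter and all 3, KDR, PECAM1 and TEK, rose, against 25.3% of all genes tested. PECAM1 passed the filter only through the compound 11 libraries, where it was higher. The summed level of the 8 was 10.6 to 12.7 TPM with compound 11 and 3.38 to 3.91 TPM with DMSO, with CDH5 at or below 0.153 TPM and LYVE1 listed at 0 in all 6; the part of these cells in the result was not tested. CD70, the ligand of CD27, averaged 5.04 TPM with compound 11 and 2.92 TPM with DMSO, and EDA, ectodysplasin, 5.17 and 3.81 TPM in the same order; both rose. TNFSF4, the ligand of TNFRSF4, had a log2 fold change of -0.31 and missed the threshold (limma, adjusted p = 0.0881). The count of ligands that rose was 1 to 4 as single libraries were left out; it was 1 without compound 11 replicate 3, and 2 without compound 11 replicate 1 or DMSO replicate 1. TNF was above 0 only in DMSO replicate 2, at 0.082 TPM, and CD40LG, FASLG, TNFSF11 and TNFSF18 were listed at 0 in all 6 libraries.

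**Figure D4:**
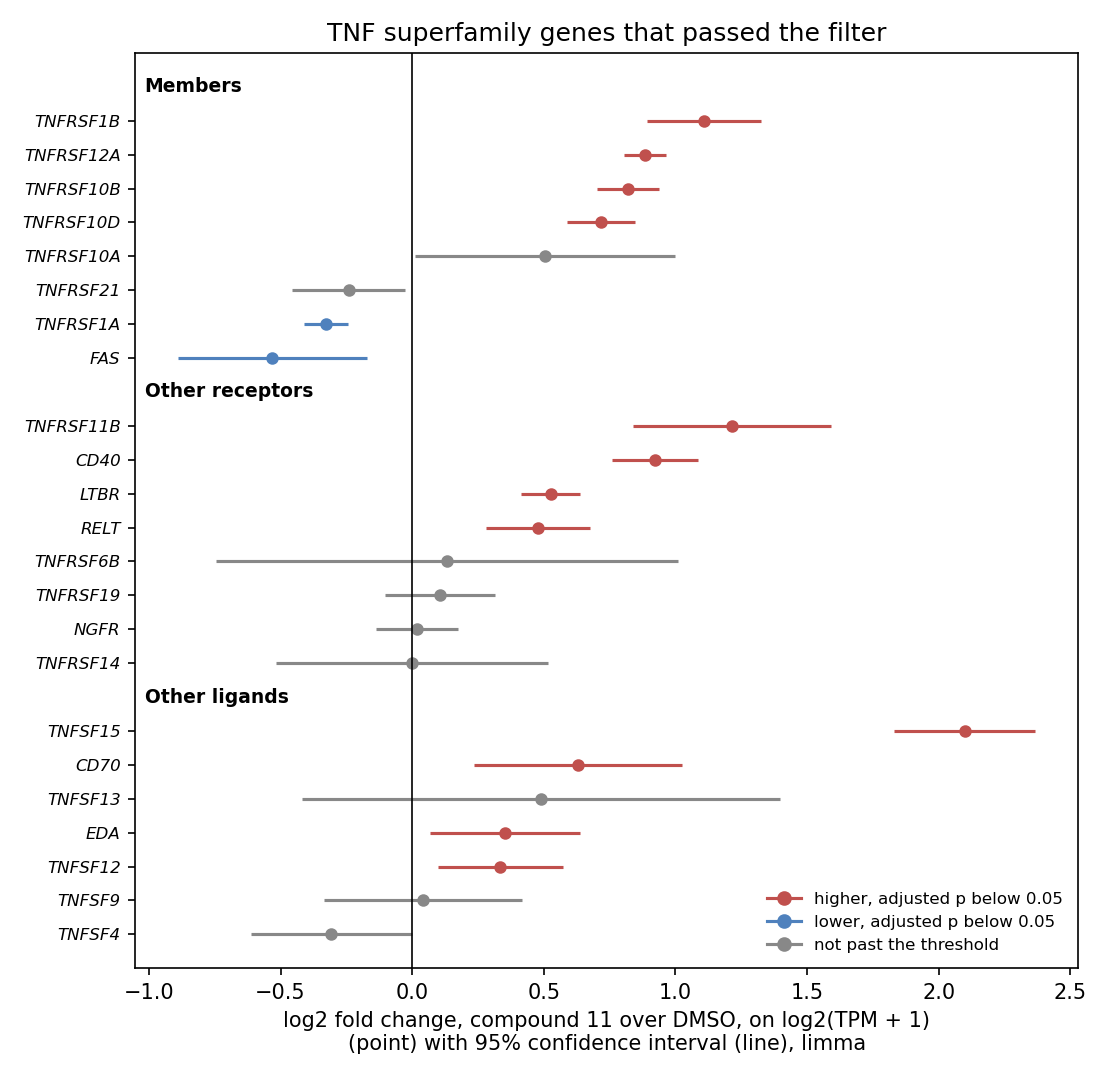
Log2 fold change, compound 11 over DMSO, on the log2(TPM + 1) scale for members, other receptors and other ligands that passed the filter; points are limma estimates and lines 95% confidence intervals, n = 3 per group. Among members TNFRSF1B is highest at 1.11 and FAS lowest at -0.53, and TNFSF15 stands furthest right at 2.10.

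Genes that carry the signal from these receptors went both ways, more of them up than down. Of 28 adaptors, kinases, caspases and regulators, 27 passed the filter, 11 rose and 3 fell. Of those tested 51.9% were called, close to the 49.6% of all genes, of which 25.3% were higher and 24.3% lower. The median log2 fold change was 0.13, against -0.0013 over all genes tested. CFLAR, the catalytically inactive relative of CASP8 that restrains it at the receptor, had 37.7, 35.7 and 40.5 TPM with compound 11, against 20.1, 18.0 and 20.7 TPM with DMSO (log2 fold change 0.92 ± 0.08 SE, in limma, Benjamini-Hochberg adjusted p = 1.11e-05). CASP8 had 13.7, 16.0 and 15.1 TPM with compound 11, against 20.1, 17.8 and 21.4 TPM with DMSO (log2 fold change -0.38 ± 0.09 SE, in limma, Benjamini-Hochberg adjusted p = 0.00864). CFLAR thus exceeded CASP8 in every compound 11 library, while with DMSO their levels lay close together.

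CASP6, an effector caspase, also fell, 1.19-fold. CRADD, a death-domain adaptor, rose 2.18-fold, CYLD, a deubiquitinase of TNF receptor complexes, 1.67-fold, TAB3, an adaptor of the kinase TAK1, 1.58-fold, and RBCK1, a subunit of the linear ubiquitin ligase, 1.22-fold. FADD averaged 101 TPM with compound 11 and 86.7 TPM with DMSO, and RIPK1 33.2 and 26.3 TPM in the same order; both rose. TRADD, at 7.95 TPM with compound 11 and 6.97 TPM with DMSO, did not pass. RIPK3, the kinase of necroptosis, was below the filter, at 0 to 0.249 TPM with compound 11 and listed at 0 in all DMSO libraries.

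Genes that govern the shedding of receptors and ligands were called in 6 of 8 cases, 5 higher and 1 lower, against 49.6% of all genes called, 25.3% higher and 24.3% lower. ADAM17, the protease that cleaves TNF and its receptors, had 26.9, 30.7 and 27.4 TPM with compound 11, against 23.4, 20.7 and 21.2 TPM with DMSO, and was 1.30-fold higher. Its partner RHBDF2, which brings it to the cell surface, had 38.3, 41.3 and 36.0 TPM with compound 11, against 17.5, 19.1 and 16.2 TPM with DMSO (log2 fold change 1.09 ± 0.08 SE, in limma, Benjamini-Hochberg adjusted p = 5.31e-06). RHBDF1, a related protein, rose 1.75-fold. TIMP3, the tissue inhibitor that blocks ADAM17, went the other way, with 17.1, 17.6 and 17.8 TPM with compound 11, against 51.1, 50.4 and 48.1 TPM with DMSO (log2 fold change -1.46 ± 0.06 SE, in limma, Benjamini-Hochberg adjusted p = 8.25e-08). ERAP1, an aminopeptidase reported to promote release of TNFRSF1A, rose 1.62-fold, and FURIN, which activates ADAM17, 1.201-fold. ADAM10 and NUCB2 were not called, and both had lower means with compound 11. ADAM10, the most abundant of the list, averaged 183 TPM with compound 11 and 202 TPM with DMSO. NUCB2 averaged 51.4 and 54.4 TPM in the same order. RNA levels do not measure cleavage at the cell surface. Of 4 enzymes that glycosylate TRAIL receptors, only GALNT3 passed the filter, and it rose 1.31-fold; its call was lost in 4 of 6 leave-one-out fits. GALNT14, FUT3 and FUT6 were listed at 0 in all 6 libraries.

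**Figure D5:**
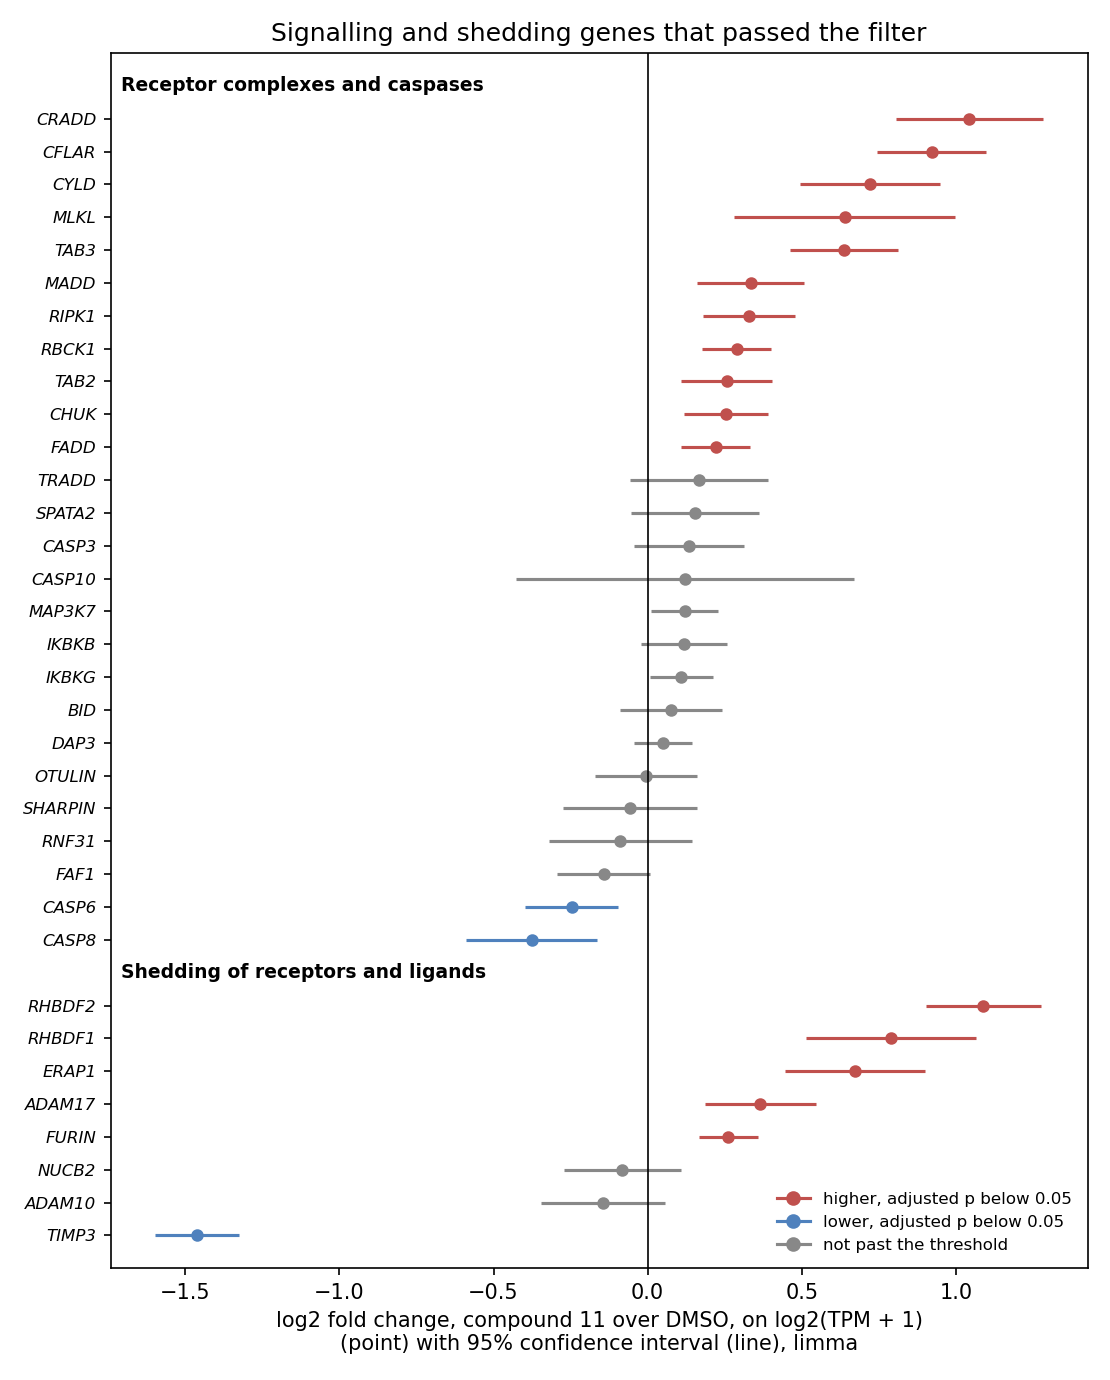
Log2 fold change, compound 11 over DMSO, on the log2(TPM + 1) scale for reported genes of receptor complexes and caspases and for genes of shedding; points are limma estimates and lines 95% confidence intervals, n = 3 per group. CRADD and CFLAR lead the first group and CASP8 is last at -0.38, while TIMP3 is at -1.46 in the second.

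Genes with the pattern closest to a member were sought among 10206 genes with a mean of at least 5 TPM, by the distance between deviations of log2(TPM + 1) from the mean over the 6 libraries. With 2 groups this mostly reflects the difference between groups. Closest to TNFRSF1B were RASSF3, SPTB and HBP1, with distances of 0.087, 0.0909 and 0.11 and log2 fold changes of 1.11, 1.12 and 1.06. Closest to FAS were IL1R1, ZWILCH and FANCC, with distances of 0.156, 0.162 and 0.173 and log2 fold changes of -0.63, -0.52 and -0.45.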

How the data were processed

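Per the labels' protocols, RNA extracted with Trizol went into Illumina TruSeq libraries. Bowtie 0.12.2 and the builds GRCh38.p12 and mm8, a mouse build, are named in the submitters' processing notes without a role; the counting tool, annotation, use of strand and filters are not stated there. Columns are headed FPKM, per the file headers, but each deposited column sums to 1000000, so the deposited values were taken as TPM. For 1049 genes above 0 in a single library, values fell with transcript length (Spearman rho -0.51 across genes). The scaling keeps no depth, so no counting error can be given, and a gene can fall because others rise. Of the identifiers, 20113 (98.9%) were found in GENCODE v29, which gave coordinates.

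Groups and replicate numbers came from the sample labels. log2(TPM + 1) values were fitted in limma 3.58.1 (R 4.3.3) with a variance trend. In simulated data the fit recovered 40% of 1.25-fold and 98% of 2-fold changes, with 12 false calls among 174. Few genes were changed there, none at low levels, so the simulation does not cover low genes or changes as widespread as here. Folds without log2 are ratios of mean TPM. The fitted scale understates changes of low genes. The design had foreseen FPKM; the same test was used. The members were picked by symbol, but they and the lists were chosen with earlier results of these data known. From each list up to 5 genes with the smallest adjusted p are named, with genes at 0, those the background names and the 3 nearest patterns. TNF, TNFRSF6B, TNFRSF10C, NGFR, RIPK3, CASP6, ADAM17, the receptors of the closing observations and the marker genes were chosen after their values were seen. So were ADAM10 and NUCB2. Of the listed genes, 2 are counted but not reported here by name. Same-numbered libraries were not treated as pairs. The 14 alternatives were pseudocounts of 0.1 and 0.01, no filter, a mean of at least 5 TPM, upper-quartile rescaling, quantile normalization, no variance trend, a replicate block and each library left out.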

Additional observations from a re-analysis of the deposited data

How the results depend on the processing

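TNFRSF1A, TNFRSF1B, TNFRSF10B, TNFRSF10D and TNFRSF12A kept their direction and their call in all 14 alternatives. The count of members called was 5 to 7, and that of all genes called was 5204 to 6226; no list count other than those given next moved by over 1.5 times. The count of ligands that rose, 4, became 2 with no filter and 1 with a mean of at least 5 TPM, where fewer ligands were tested, and was 1 to 4 with single libraries left out. The count of glycosylation enzymes, 1, was 0 to 1 with single libraries left out. The difference in log2 ratio of TNFRSF10A to TNFRSF10B, 0.05, turned to -0.28 without compound 11 replicate 1 and -0.17 without DMSO replicate 3 and spanned -0.28 to 0.30 with single libraries left out. FAS lost its call in 3 alternatives and TNFRSF21 gained one in 3; the cause was not tested. Correlations of deviations between same-numbered libraries were 0.0794, 0.149 and 0.0663, against -0.103 to 0.0333 between libraries of different number. Each library thus correlated best with its own number, though weakly. The main fit did not take the numbers as pairs, and whether same-numbered libraries share a source was not tested. With the replicate block 7 members were called, 5 higher and 2 lower, TNFRSF10A among them (adjusted p = 0.0317), and 6226 genes in all. Depth is unknown, which leaves TNFRSF9, TNFRSF10A and TNFSF10, at a few TPM or less, the least certain.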

Other observations

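Several receptors of the family lay just under the filter and were not tested. TNFRSF11A, the receptor for RANK ligand, had 1.41, 0.896 and 1.16 TPM with compound 11, against 0.644, 0.956 and 0.826 TPM with DMSO, and the groups overlapped. TNFRSF25, the receptor for TNFSF15, had 0.923, 1.195 and 1.36 TPM with compound 11, against 0.557, 0.979 and 0.776 TPM with DMSO, and here too the groups overlapped. EDA2R, a receptor for ectodysplasin, had 1.18, 0.980 and 0.762 TPM with compound 11, against 0.725, 0.440 and 0.495 TPM with DMSO. All 3 of its compound 11 libraries were above all 3 DMSO libraries, at levels near the floor of the table. Groups were apart in this way, in either direction, in 57.8% of all genes tested. TNFRSF13C, also under the filter, leaned the other way. It averaged 0.650 TPM with compound 11 and 0.803 TPM with DMSO, and the groups overlapped.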
